A study of Mus musculus with 6 samples.

Results

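The Obox genes are a mouse family of homeobox genes that is transcribed in oocytes. The 5 genes described here, Obox1, Obox2, Obox3, Obox5 and Obox6, are all the rows of the deposited expression table whose symbol begins with Obox, out of 24255 genes listed. They were measured by RNA-Seq in fully-grown oocytes (FGOs) at the germinal vesicle (GV) stage, which are immature oocytes that have completed growth and are arrested in prophase of the first meiosis. There were 3 libraries from wild type (WT) and 3 from Lsm14b-knockout (Lsm14b-KO) females, and each library was made from a pool of 20 oocytes amplified by Smart-seq2, a protocol for very small RNA inputs. Lsm14b-KO females were homozygous for Lsm14b tm1a(KOMP)Mbp, a germline reporter-tagged insertion in the gene for an RNA-binding protein, on a C57BL/6J background. Both genotypes had received 5 IU of PMSG, a gonadotropin that drives follicle growth, 46 h before collection. The age of these animals is not given in the sources used here. Nothing says that the libraries of a group came from separate animals, so the p-values measure the spread between these samples, which may be technical.

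Homeobox genes encode transcription factors that bind DNA through a homeodomain. The homeodomain of the OBOX proteins belongs to the paired-like class, to which CRX and OTX proteins also belong. Oocytes store Obox transcripts, and OBOX proteins of maternal and embryonic origin are known in mice for promoting the activation of the zygotic genome after fertilization. Obox1, Obox2, Obox5 and Obox7 are known as maternal members, whereas Obox3 is known mainly for its transcription in the early embryo. LSM14B belongs to a protein family that takes part in the storage and translational repression of mRNAs in oocytes. For LSM14B itself, the paper that reported these data proposes that it probably acts mainly by promoting translation of some mRNAs.

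The 5 genes lie in one cluster of 450.8 kb on chromosome 7 (RefSeq annotation, GRCm38.p6, the same assembly as the mm10 build of the deposited table). Obox2 occupies chr7:15388851-15398545 and Obox1 chr7:15547257-15556846, both on the plus strand. Obox3 follows on the minus strand at chr7:15625306-15639777. Obox5 lies on the plus strand at chr7:15750370-15759274 and Obox6 on the minus strand at chr7:15833250-15839679. All 5 are protein coding, and RefSeq places 9 Obox pseudogenes between Obox2 and Obox6. A further gene of the family, Obox7, is at chr7:14659708-14665996, 722.9 kb from Obox2. RefSeq lists Gm4745 as its older symbol, and a row with that symbol is present in the table. It is no member of the set of 5 and was added after its values were seen.

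The paralogs are alike enough that their separate levels can depend on how reads were shared among them. The first 100 coding bases, counted from the start codon in the GENCODE transcript of each gene (GRCm38), are shown because they let the likeness be seen directly. Capitals mark bases that differ from Obox2 at the same position.
Obox2: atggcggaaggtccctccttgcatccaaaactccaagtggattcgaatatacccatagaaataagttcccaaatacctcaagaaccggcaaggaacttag
Obox1: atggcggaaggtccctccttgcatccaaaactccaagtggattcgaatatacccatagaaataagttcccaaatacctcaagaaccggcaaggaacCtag
Obox5: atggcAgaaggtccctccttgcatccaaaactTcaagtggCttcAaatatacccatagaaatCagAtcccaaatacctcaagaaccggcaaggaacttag
Obox3: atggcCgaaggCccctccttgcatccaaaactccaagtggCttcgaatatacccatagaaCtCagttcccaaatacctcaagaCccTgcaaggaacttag
Obox7: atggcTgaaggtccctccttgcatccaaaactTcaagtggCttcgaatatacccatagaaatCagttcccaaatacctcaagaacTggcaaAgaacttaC
The stretches are chr7:15396845-15396944 (Obox2), chr7:15555162-15555261 (Obox1), chr7:15757537-15757636 (Obox5), chr7:15627239-15627338 (Obox3, minus strand) and chr7:14664037-14664136 (Obox7), all within the first coding exon. In this stretch Obox1 differed from Obox2 at 1 base, Obox5 at 6, Obox3 at 7 and Obox7 at 7. Over the full transcripts, 1447 of 1459 aligned bases (99.2%) were identical between Obox1 and Obox2. Identity was 88.9% to 94.2% for the other pairs among Obox1, Obox2, Obox3, Obox5 and Obox7, and 79.7% to 81.6% for Obox6 against each of them. The annotated coding length, without the stop codon, was 612 bases for Obox1, 453 for Obox2, 1005 for Obox3, 873 for Obox5 and 1041 for Obox6. Of all windows of 150 bases, the length of a read, 31.4% of those of Obox1 occurred without a mismatch in Obox2. Conversely 32.7% of those of Obox2 occurred in Obox1. No window of Obox5 or Obox6 occurred without a mismatch in another gene, and 10.7% of those of Obox3 did. With up to 2 mismatches allowed, 55.6% of the Obox1 windows matched Obox2, whereas 1.1% of the Obox5 windows matched Obox7 and 0.0% matched Obox1 or Obox2. The values of Obox1 and Obox2 are therefore uncertain one by one, and their sum is given as well.

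The region before the annotated start was also compared, since the 3 abundant members had high levels together. Promoter windows of RefSeq (GRCm38.p6, 300 bases from before to just after the start) were given for Obox1, Obox2, Obox3, Obox5 and Obox7 but not for Obox6. The letters TATATAA, searched on both strands, occurred in the windows of Obox1, Obox3, Obox5 and Obox7, and in 3.24% of all 32851 windows. The last 100 bases before the start are shown for the members where the motif, in capitals, lies within them.
Obox1: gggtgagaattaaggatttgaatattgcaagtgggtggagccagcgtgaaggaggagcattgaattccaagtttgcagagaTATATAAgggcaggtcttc
Obox3: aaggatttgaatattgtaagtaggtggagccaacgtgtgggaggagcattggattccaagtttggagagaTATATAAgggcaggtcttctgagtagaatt
Obox5: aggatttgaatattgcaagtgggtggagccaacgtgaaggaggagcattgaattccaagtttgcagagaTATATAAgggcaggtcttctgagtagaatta
The motif began 19 bases before the annotated start of Obox1, 30 before that of Obox3 and 31 before that of Obox5. These stretches are chr7:15547157-15547256 (plus strand), chr7:15639778-15639877 (minus strand) and chr7:15750270-15750369 (plus strand). The window of Obox2 does not hold these letters, but it covers a shifted stretch. Its bases 98 to 300 are identical to bases 1 to 203 of the Obox1 window (203 of 203 bases), so that the annotated starts of both genes lie at different points of one shared sequence. The Obox1 and Obox5 windows were identical at 273 of 283 aligned bases (96.5%). Matches of such short motifs are descriptions and not binding sites. The elements TAATTG and TAATTA are the letters that NOBOX, a homeodomain factor of oocytes, is known to bind. They were in none of the 5 windows and in 8% and 5.29% of all windows. Of the other motifs searched, CCAAT was in the windows of Obox2, Obox3 and Obox7 and in 37.4% of all windows. GGATTA was in that of Obox3 alone and in 7.06% of all windows. CATCTG and GGGCGG were in none of the 5 windows and in 17.2% and 35.7% of all windows.

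The level of each gene is given in FPKM, fragments per kilobase of transcript and per 1000000 mapped fragments, so that levels can be compared between genes of different length. The deposited table holds no read counts, so that the absolute depth is unknown. From the steps between the lowest values, the relative depth was estimated at 1.00 to 1.13 in the WT libraries and 1.32, 1.95 and 2.17 in replicates 1 to 3 of Lsm14b-KO. These estimates are rough, since only part of the genes used gave the most frequent value. These were 148 of 406 in WT replicate 2, 230 of 398 in WT replicate 3 and 136 of 318 in Lsm14b-KO replicate 3. The FPKM of all genes summed to 1141324 to 1244182 in WT and to 1029728, 564671 and 676656 in replicates 1 to 3 of Lsm14b-KO. FPKM is a relative unit, and in bulk libraries a lower value in each oocyte and fewer oocytes with the transcript cannot be told apart. The libraries are called WT 1, WT 2, WT 3, KO 1, KO 2 and KO 3 below by their replicate numbers. Across the 6398 tested genes KO 1 lay nearer to WT than KO 2 and KO 3 did. Its Pearson's r of log2(FPKM + 1) was 0.952 to 0.954 with the WT libraries, 0.917 with KO 2 and 0.960 with KO 3, and values without it are given beside the results that it changes. Genes are not independent replicates, so that r is a description. The targeted gene Lsm14b (chr2:180024900-180035466) had 2.77, 3.98 and 1.72 FPKM in WT and was listed at 0, 0 and 0.102 FPKM in KO 1, KO 2 and KO 3. Of the oocyte markers, 14 of 14 were tested, and their summed level was 14937 to 17953 FPKM in WT and 17123 to 19857 FPKM in Lsm14b-KO libraries. Markers of red blood cells were listed at 0 in every library (7 of 7), as were 5 of 6 markers of white blood cells. Of the 20 markers of cumulus and granulosa cells, the somatic cells around the oocyte, 8 were listed at 0 throughout. Their summed level was 24.5 to 32.1 FPKM in WT and 25.6 to 65.1 FPKM in Lsm14b-KO libraries.

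Obox1, Obox2 and Obox5 were among the most abundant transcripts of WT FGOs, and all 3 were lower in Lsm14b-KO FGOs on the FPKM scale, while in TPM, described further on, 1 of them passed the test. Together the 5 Obox genes held 11.3, 10.8 and 12.1% of the FPKM of all genes in WT 1, WT 2 and WT 3. In KO 1, KO 2 and KO 3 they held 6.88, 9.45 and 8.15%. Each genotype was compared with limma on log2(FPKM + 1), with adjustment by the Benjamini-Hochberg method over the 6398 genes that reached 1 FPKM in at least 1 library, and an adjusted p under 0.05 was the threshold. Of the 5 members, 4 were tested and 3 passed the threshold, all lower in Lsm14b-KO FGOs. Among all tested genes 15.2% were called lower in this fit, and among the 625 genes with a mean of at least 100 FPKM 26.9% were.

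Obox2 had 53951, 48384 and 53017 FPKM in WT 1, WT 2 and WT 3. It ranked 1 of 24255 genes in each of these libraries. In KO 1, KO 2 and KO 3 it had 20802, 21606 and 21918 FPKM and ranked 7, 2 and 3. The groups lay far apart and the values within each were close, with means of 51784 ± 2981 FPKM (SD, n = 3) for WT against 21442 ± 576.0 FPKM (SD, n = 3). The mean was 58.6% lower, and the log2 fold change was -1.27 with an SE of 0.20 (limma, adjusted p 0.00600). This call was kept without any one of the 6 libraries, with adjusted p-values of 4.11e-04 to 0.0475 in limma.

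Obox5 had 52810, 47584 and 51989 FPKM in WT 1, WT 2 and WT 3, and 35040, 15642 and 16385 FPKM in KO 1, KO 2 and KO 3. It ranked 2 in every WT library and 2, 5 and 5 in the Lsm14b-KO libraries. The groups did not overlap, but KO 1 stood well above the other two. The means were 50794 ± 2811 FPKM (SD, n = 3) and 22356 ± 10991 FPKM (SD, n = 3), 56.0% lower in Lsm14b-KO. The log2 fold change was -1.29 with an SE of 0.33 (limma, adjusted p 0.0316). Without KO 1 it was -1.66 (limma, adjusted p 1.15e-04), in a fit where 28.7% of the 6280 tested genes were called lower. Leaving out any other single library ended the call, with adjusted p-values of 0.0656 to 0.133 in limma and log2 fold changes of -1.33 to -1.08.

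Obox1 had 33423, 30605 and 33345 FPKM in WT 1, WT 2 and WT 3, and ranked 6, 6 and 4. It had 14984, 16122 and 16832 FPKM in KO 1, KO 2 and KO 3 and ranked 13, 4 and 4. As for Obox2, the values within each genotype were close and the groups did not overlap. The means were 32457 ± 1605 FPKM (SD, n = 3) and 15979 ± 932.3 FPKM (SD, n = 3), 50.8% lower in Lsm14b-KO, and the log2 fold change was -1.02 with an SE of 0.21 (limma, adjusted p 0.0149). The call ended when any WT library or KO 3 was left out, with adjusted p-values of 0.0640 to 0.0795 in limma.

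Obox3 was detected at a low level. It had 1.70, 1.65 and 3.10 FPKM in WT and 1.13, 1.36 and 1.04 FPKM in KO 1, KO 2 and KO 3. The groups did not overlap, yet WT 3 stood well above the other WT libraries. The difference did not pass the threshold, with a log2 fold change of -0.51 (limma, 95% interval -1.04 to 0.02, adjusted p 0.138). At such low levels the added 1 FPKM makes the fitted change smaller than the change in FPKM. Obox6 had 0.237, 0.619 and 0.228 FPKM in WT, and 0.177, 0 and 0.324 FPKM in KO 1, KO 2 and KO 3. It stayed under 1 FPKM in every library and was not tested, and its values overlapped between the genotypes. In 4 of the 5 members the highest Lsm14b-KO value was below the lowest WT value, which was the case for 26.0% of the tested genes.

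**Figure D1:**
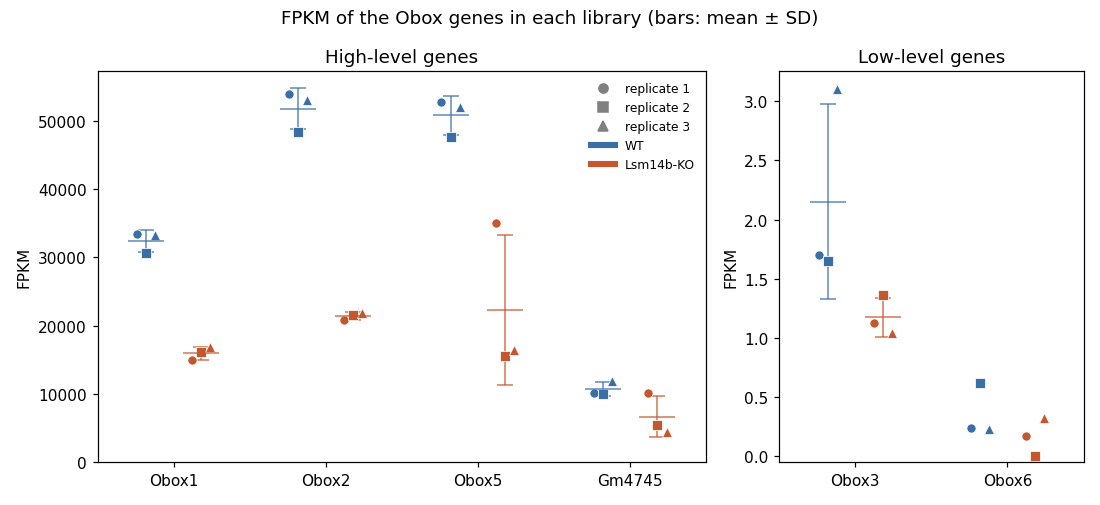
FPKM (linear vertical axis) of Obox1, Obox2, Obox5 and Gm4745 (left) and of Obox3 and Obox6 (right, own axis) in each of the 3 WT and 3 Lsm14b-KO libraries. Symbols are replicates, and the horizontal marks with bars are the mean ± SD, left out for Obox6, which is listed at 0 in 1 library. All Lsm14b-KO points of Obox1, Obox2, Obox5 and Obox3 lie below the WT points, and Obox5 in KO 1, at 35040 FPKM, lies between the other two and the WT libraries.

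Gm4745 (Obox7) had 10173, 10042 and 11912 FPKM in WT and 10146, 5404 and 4508 FPKM in KO 1, KO 2 and KO 3. KO 1 lay within the WT range, so that the groups overlapped. The log2 fold change of -0.77 did not pass the threshold (limma, 95% interval -1.55 to 0.02, adjusted p 0.133). Without KO 1 the fit gave -1.11 (limma, adjusted p 0.00172), but in that fit 28.7% of the 6280 tested genes were called lower. In its level this gene ranked 18 to 23 in the WT libraries, below the 3 abundant members.

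Since reads of near-identical transcripts can be assigned to either gene, the sums were compared. The 5 genes summed to 140186, 126575 and 138354 FPKM in WT 1, WT 2 and WT 3. In KO 1, KO 2 and KO 3 they summed to 70827, 53371 and 55137 FPKM, below each WT value. The means were 135039 ± 7386 FPKM (SD, n = 3) against 59778 ± 9609 FPKM (SD, n = 3), 55.7% lower, which is a log2 ratio of the means of -1.18. No test was made of a sum over the members. Without KO 1 this ratio was -1.32. With Gm4745 added to the sum, an alternative chosen after seeing the data, it was -1.13. Obox1 and Obox2, which share most sequence, summed to 84242 ± 4577 FPKM (SD, n = 3) for WT against 37421 ± 1506 FPKM (SD, n = 3), a log2 ratio of -1.17. Obox3 held 0.00121 to 0.00254% of the sum in the 6 libraries.

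The proportions among the 3 abundant members were nearly fixed in WT and shifted between the Lsm14b-KO libraries. Obox5 held 37.7, 37.6 and 37.6% of the Obox sum in WT 1, WT 2 and WT 3. It held 49.5% in KO 1 but 29.3 and 29.7% in KO 2 and KO 3, on both sides of the WT share. The ratio of Obox5 to Obox2 was 0.979, 0.983 and 0.981 in WT and 1.68, 0.724 and 0.748 in KO 1, KO 2 and KO 3. Its mean log2 value therefore differed by 0.02 between the genotypes, whereas its SD was 0.00 in WT and 0.69 in Lsm14b-KO. The ratio of Obox1 to Obox2 was 0.619, 0.633 and 0.629 in WT and 0.720, 0.746 and 0.768 in KO 1, KO 2 and KO 3. All Lsm14b-KO values of this ratio lay above all WT values, with a mean difference of 0.25 on the log2 scale. The exact two-sided permutation test gave a p of 0.10, the smallest that 3 against 3 allow, or 0.60 after Benjamini-Hochberg adjustment over the 6 member pairs for which a ratio could be formed. Gm4745 to Obox5 had ratios of 0.193, 0.211 and 0.229 in WT. In KO 1, KO 2 and KO 3 these were 0.290, 0.345 and 0.275, also without overlap and not tested. Gm4745 to Obox2 had ratios of 0.189, 0.208 and 0.225 in WT. Its ratios in KO 1, KO 2 and KO 3 were 0.488, 0.250 and 0.206, so that the groups overlapped.

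**Figure D2:**
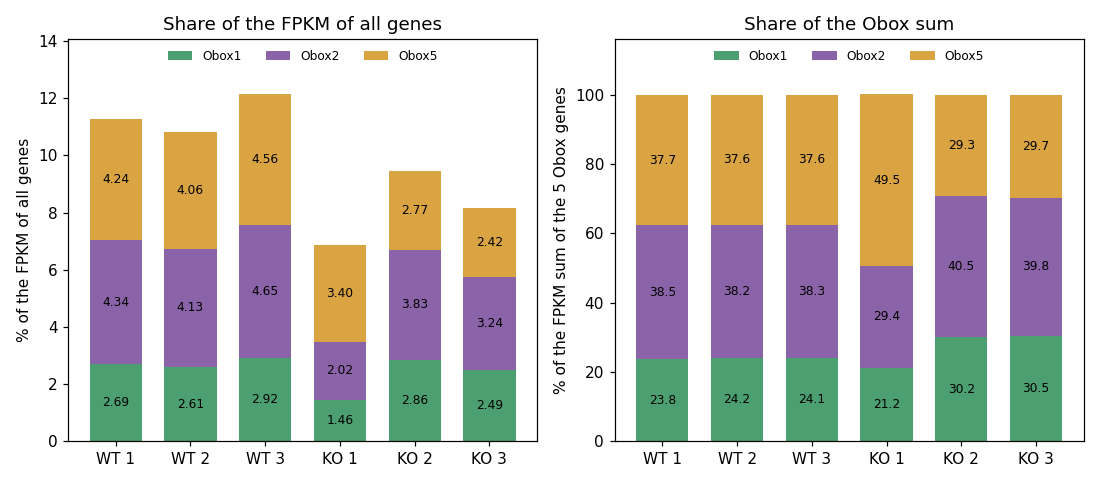
Stacked bars per library (WT 1 to 3, KO 1 to 3 for Lsm14b-KO) give the % of the FPKM of all genes held by Obox1, Obox2 and Obox5 (left) and their % of the FPKM sum of the 5 Obox genes (right). Obox3 and Obox6 are too low to be drawn. On the right the 3 WT bars are nearly alike, with 37.6 to 37.7% for Obox5, while KO 1 has 49.5% and KO 2 and KO 3 have 29.3 and 29.7%.

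Because the FPKM of all genes summed to less in the Lsm14b-KO libraries, the comparison was repeated with each library scaled to the same FPKM sum (TPM, transcripts per 1000000). On this scale Obox2 had 43363, 41287 and 46452 TPM in WT and 20201, 38263 and 32392 TPM in KO 1, KO 2 and KO 3. The groups still did not overlap, but the Lsm14b-KO values were now spread, and KO 1 was the lowest. The log2 fold change was -0.58 (limma, 95% interval -1.11 to -0.04, adjusted p 0.0965). Obox5 had 42446, 40604 and 45551 TPM in WT and 34028, 27701 and 24215 TPM in KO 1, KO 2 and KO 3. It remained past the threshold, with a log2 fold change of -0.59 with an SE of 0.16 (limma, adjusted p 0.0405). Obox1 had 26863, 26115 and 29216 TPM in WT and 14551, 28551 and 24875 TPM in KO 1, KO 2 and KO 3. Here the groups overlapped, and the log2 fold change was -0.33 (limma, 95% interval -0.90 to 0.24, adjusted p 0.322). Obox3 had a log2 fold change of -0.08 and Gm4745 of -0.07, with adjusted p-values of 0.860 and 0.797 in limma. Thus 1 of the 4 tested members was called lower in TPM, where 7.60% of all tested genes were, and 15.1% of the genes had groups that did not overlap in this direction.

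The scaling moved the median log2 fold change of all tested genes from -0.08 in FPKM to 0.40 in TPM. Relative to this median, Obox1, Obox2 and Obox5 were at -0.95, -1.20 and -1.21 in FPKM and at -0.73, -0.98 and -0.99 in TPM. This median is over all 6398 tested genes, many of them at low levels. Among the 2560 genes with a mean of at least 5 FPKM it was -0.45 in FPKM, nearer to the 3 genes. The summed FPKM of all genes but the 5 members had a log2 ratio of the means of -0.59. With median-ratio scaling, which sets the typical gene of each library to the same level, the 3 genes passed the threshold. Their log2 fold changes were -0.76 (limma, adjusted p 0.0318), -1.01 (adjusted p 0.0108) and -1.02 (adjusted p 0.0349). In this fit 795 of the 6398 tested genes were called lower. Quantile normalization, which gives every library the same distribution of values, left none of the 3 genes past the threshold. There 735 of the 6398 tested genes were called lower. The log2 fold changes of the 3 genes were then -0.23, -0.65 and -0.45, and 2 of the 4 tested members had an unadjusted p under 0.05 in limma. A correction for transcript length and GC content gave -0.53, -0.74 and -0.87, with adjusted p-values of 0.0992, 0.0365 and 0.0199 in limma. After this correction 788 of 6321 tested genes were called lower. The fitted direction of the 4 tested members was lower under each of these scalings.

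**Figure D3:**
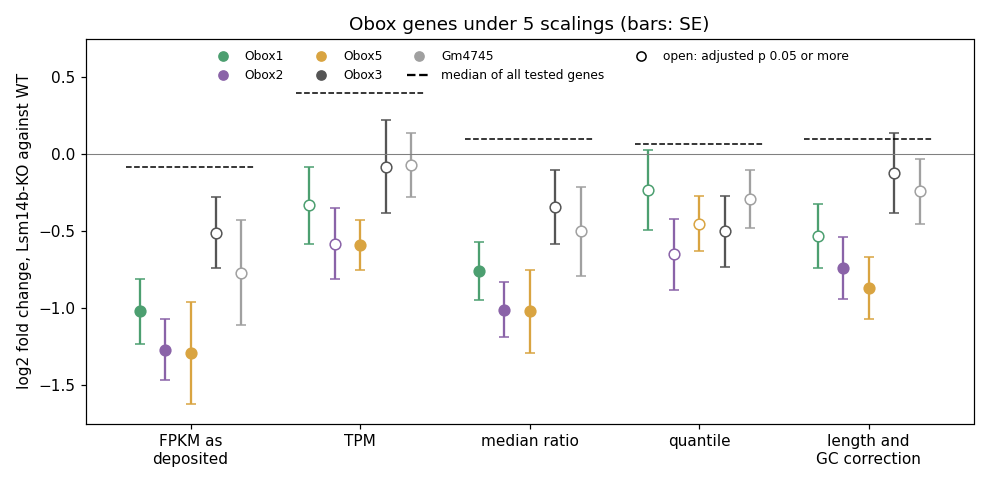
Fitted log2 fold change (Lsm14b-KO against WT, vertical axis, bars are SE) of Obox1, Obox2, Obox5, Obox3 and Gm4745 under 5 scalings of the same libraries (horizontal axis). Filled points have an adjusted p under 0.05 in limma, open points do not, and dashed lines give the median of all tested genes. Every point is below 0 and below the dashed line of its scaling. The median itself runs from -0.08 in FPKM to 0.40 in TPM.

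The genes whose profile over the 6 libraries was nearest to that of the Obox sum were named by the Euclidean distance between centred log2(FPKM + 1) values, among 893 genes with a mean of at least 50 FPKM. These were Mdm4 (distance 0.183), Pcbd1 (0.247), Cox14 (0.278), Pxt1 (0.278) and Tcl1b4 (0.295), against a median distance of 1.322. The distance measures likeness to a profile that was low in Lsm14b-KO, so that the falls of these genes are no separate finding. Mdm4, which encodes a partner of MDM2 in the inhibition of p53, had 565.6, 547.9 and 503.0 FPKM in WT and 281.7, 212.2 and 213.2 FPKM in KO 1, KO 2 and KO 3. Tcl1b4, of the Tcl1 family of oocytes and embryos, had 1699, 1712 and 1824 FPKM in WT and 1104, 718.3 and 672.2 FPKM in KO 1, KO 2 and KO 3. The abundant members themselves were at distances of 0.382 (Obox2), 0.471 (Obox1) and 0.621 (Obox5) from their sum. Gm4745 ranked 109 of the 893 genes, at a distance of 0.792.

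**Figure D4:**
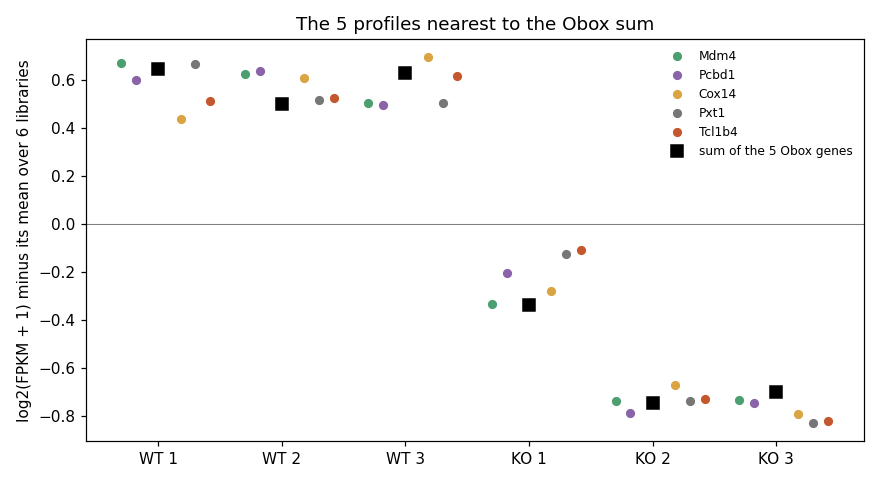
Level of the Obox sum (squares) and of the 5 genes with the nearest profiles (circles) in each library (horizontal axis), as log2(FPKM + 1) minus the mean over the 6 libraries (vertical axis). All 6 profiles are above 0 in the WT libraries and below 0 in the Lsm14b-KO libraries, and all are highest among the Lsm14b-KO libraries in KO 1.

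Around the cluster, within 1 Mb of any member by the deposited loci, 35 other genes were listed and 7 were tested, Gm4745 among them. None of the 7 passed the threshold in limma, where 1383 of all 6398 tested genes did. Of the 7, 1 had an unadjusted p under 0.05. The highest mean, 8698 FPKM, was that of Gm4745. Crxos, a homeobox gene beside Obox6 (chr7:15882617-15904030), was listed at 0 in all 6 libraries.

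Other homeobox genes of oocytes and relatives of Obox did not show a common direction. Of 27 symbols 25 were in the table and 9 were tested. There were 2 that rose, 7 did not pass the threshold, and the median log2 fold change was 0.09, where 6.38% of all tested genes were called higher. Nobox, a homeobox regulator of oocyte genes from the primordial follicle on, had 10.5, 10.5 and 16.5 FPKM in WT and 46.3, 98.9 and 52.3 FPKM in KO 1, KO 2 and KO 3. It rose by a log2 fold change of 2.25 with an SE of 0.36 (limma, adjusted p 0.00640). Lhx8, a LIM homeobox factor of early oocytes, rose from 9.18 ± 0.752 to 16.8 ± 2.26 FPKM (SD, n = 3 each). The fitted difference was 0.80 (limma, adjusted p 0.0447), and the call ended without any one library other than KO 1, with adjusted p-values of 0.0531 to 0.151. Cphx1, another homeobox gene of oocytes, had 107.6 ± 20.7 FPKM in WT and 57.8 ± 13.6 FPKM in Lsm14b-KO libraries (SD, n = 3 each). This difference did not pass (limma, adjusted p 0.0723), and its log2 fold change in TPM was -0.21 (limma, adjusted p 0.680). In TPM 3 of the 9 genes were called higher, where 13.0% of all tested genes were. The median of the list was then 0.65, against 0.40 over all tested genes.

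Of 39 maternal factors linked to zygotic genome activation, the process that the OBOX proteins are known for, 26 were tested, 5 rose, 3 fell and 18 did not pass, where 6.38% of all tested genes were called higher and 15.2% lower. Their median log2 fold change was 0.22, against -0.08 over all tested genes. In TPM 6 of the 26 were called higher and 1 lower, with a median of 0.71 against 0.40 over all tested genes, where 13.0% of all tested genes were called higher and 7.60% lower. The largest rises were those of Sall4, a zinc finger factor of germ and stem cells (log2 fold change 2.69, adjusted p 0.0272 in limma), Kdm1b, a histone H3K4 demethylase of growing oocytes (2.09, adjusted p 0.00336), and Klf17 (1.02, adjusted p 0.0487). Kdm1b rose from 9.41 ± 1.10 to 44.0 ± 10.6 FPKM (SD, n = 3 each). The Sall4 values in KO 1, KO 2 and KO 3 were unequal, at 22.4, 187.1 and 62.3 FPKM. The falls were those of Btg4 (log2 fold change -1.89, adjusted p 0.00474 in limma), Pabpn1l (-1.33, adjusted p 0.00990) and Zar1l (-1.33, adjusted p 0.0144). Btg4, an adaptor of the CCR4-NOT deadenylase in maternal mRNA decay, had 4979, 4441 and 5534 FPKM in WT and 1087, 1454 and 1522 FPKM in KO 1, KO 2 and KO 3. Like Obox1 and Obox2, it was lowest in KO 1. The calls of Sall4, Klf17 and Zar1l ended without any one WT library or without KO 3, where the adjusted p in limma was 0.0856 to 0.0966 for Sall4, 0.0664 to 0.0860 for Zar1l and at least 0.117 for Klf17. The call of Klf17 also ended without KO 2 (adjusted p 0.0702), and that of Pabpn1l without KO 3 (adjusted p 0.0582). In TPM the falls of Zar1l (-0.63, adjusted p 0.115) and Pabpn1l (-0.95, adjusted p 0.0511) did not pass, and Btg4 was lower by a log2 fold change of -1.20 (adjusted p 0.0410).

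A list of 29 genes known for their transcription in the early embryo had 24 in the table, of which 10 were tested, 1 rose, 1 fell and 8 did not pass, against 6.38% of all tested genes higher and 15.2% lower. The median log2 fold change was 0.80, against -0.08 over all tested genes. The tested Zscan4 genes, of which none passed, all had their highest Lsm14b-KO value in KO 2. Zscan4d, for example, had 8.34, 75.5 and 8.99 FPKM in KO 1, KO 2 and KO 3. In TPM the median of the list was 1.26, against 0.40 over all tested genes. On this scale 2 of the 10 were called, both higher, against 13.0% of all tested genes higher and 7.60% lower. Several of these genes were already well above 0 in WT oocytes, among them Arg2 with a mean of 934.3 FPKM, Tcstv1 with 636.5, Tcstv3 with 185.5 and Sp110 with 85.5 FPKM (n = 3 each), and the summed level of the list was 1759 to 1958 FPKM in WT and 1395 to 1743 FPKM in Lsm14b-KO libraries. Eif1a rose from 0.376 ± 0.256 to 2.13 ± 0.191 FPKM (SD, n = 3 each), which is a fitted log2 difference of 1.20 (limma, adjusted p 0.00917). Tcstv3 fell from 185.5 ± 5.22 to 97.8 ± 14.2 FPKM (SD, n = 3 each). The fitted log2 difference was -0.93 (limma, adjusted p 0.0475), or -0.24 in TPM (adjusted p 0.539), and the call ended without any one WT library or without KO 3 (adjusted p 0.142 to 0.176). Eif1a and Tcstv3 belong to families with near-identical copies, so that their separate values are uncertain. Of the 14 oocyte markers 1 rose, 1 fell and 12 did not pass, with a median log2 fold change of 0.36, and in TPM 1 was called, Padi6, again higher, with a median of 1.02. These counts stand against the same shares of all tested genes, 6.38% higher and 15.2% lower in FPKM and 13.0% higher and 7.60% lower in TPM. The medians stand against -0.08 in FPKM and 0.40 in TPM over all tested genes. The one that rose was Padi6, a component of the cytoplasmic lattices of the oocyte, at 64.9 ± 19.1 FPKM in WT against 175.7 ± 53.1 in Lsm14b-KO (limma, adjusted p 0.0304). The one that fell was Dazl, a germ cell RNA-binding protein, at 139.5 ± 14.2 against 47.4 ± 11.7 FPKM (limma, adjusted p 0.0131, or 0.125 in TPM). Padi6 kept its call only without KO 1, and Dazl only without KO 1 or KO 2, among the fits that left out 1 library. Of the 4 tested markers of cumulus and granulosa cells 1 fell, the aromatase gene Cyp19a1, at 10.1 ± 1.65 FPKM in WT against 4.75 ± 1.51 in Lsm14b-KO (limma, adjusted p 0.0426, or 0.309 in TPM). Its call ended in each fit that left out 1 library other than KO 1 (adjusted p 0.0790 to 0.142). The other 3 had log2 fold changes of 0.38 (Inha), 0.73 (Fshr) and 0.99 (Serpine2) that did not pass, and the median of the list was 0.56. In TPM the 1 call of the list was that of Fshr, which was higher (1.15, adjusted p 0.0378). The counts of this list also stand against 6.38% of all tested genes higher and 15.2% lower in FPKM. In TPM these shares were 13.0% higher and 7.60% lower.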

How the data were processed

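Per the labels, reads were trimmed by the authors and aligned to mm10 with tophat2 (version 2.0.13) and computed FPKM with cufflinks (version 2.2.1). Annotation, handling of multiply mapping reads and depth are not given in the sources used here, and the labels name 2 different library kits, so that kit and strandedness are not settled. The values of the deposited table are FPKM, in 1 column per library. Its columns of fold changes, p-values and q-values hold the authors' own comparison by cuffdiff and were not used.

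Group and replicate number of a library were read from its title. Genes that reached 1 FPKM in any library were tested on log2(FPKM + 1) with limma 3.58.1 in R 4.3.3 (eBayes with an intensity trend, genotype as the only term, two-sided). The code was tested on simulated data. A fold change is on the log2(FPKM + 1) scale. Ratios between members were compared by the exact permutation test, which cannot give a two-sided p below 0.1 here. FPKM as deposited was the main scale, and other pseudocounts, filters, scalings, fits and left-out libraries were tried. TPM denotes FPKM divided by the library's sum and multiplied by 1000000.

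Sequences and positions came from RefSeq (GRCm38.p6) and GENCODE vM21, read with Biopython 1.88. Symbols were matched to RefSeq by current or older name. Transcript length and GC content were found for 98.8% of the tested genes. The protein sequences were not used here. Genes were named by a rule: Lsm14b, the members, up to 3 rises and 3 falls past the threshold in each gene list, and the 5 profiles nearest to the Obox sum. Outside this rule, Gm4745, Cphx1, Crxos, Arg2, Tcstv1, Sp110, Inha, Fshr, Serpine2 and the Zscan4 genes were named after their values were seen. The members and the lists were chosen with earlier results of these data known.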

Additional observations from a re-analysis of the deposited data

How the results depend on the processing

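The fitted direction of Obox1, Obox2, Obox3 and Obox5 was lower in Lsm14b-KO FGOs under all alternatives run for them. Obox1 was past the threshold in 10 of 19 alternatives, Obox2 in 17 of 19 and Obox5 in 11 of 19. Obox3 passed in 1 of 18, the fit with quality weights per library, whose estimation did not converge. The number of members called lower was 3 as reported. It was 1 with no filter on low values, where 542 of 14325 tested genes were called lower. The number was 1 in TPM and 0 after quantile normalization (2 at an unadjusted p under 0.05 in limma). Leaving out 1 library gave 1 to 3 members, with 1 without any one of the WT libraries or without Lsm14b-KO replicate 3. The log2 ratio of the Obox sums was -1.18 as reported, -0.48 in TPM, -0.92 with median-ratio scaling, -0.43 after quantile normalization and -0.70 after the correction for length and GC content. It was -1.32 to -1.10 when 1 library was left out. The difference in the log2 ratio of Obox2 to Obox5, 0.02 as reported, ran from -0.19 without Lsm14b-KO replicate 2 through -0.17 without replicate 3 to 0.42 without replicate 1.

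Over all tested genes 1383 were past the threshold in limma, 29.5% of them higher in Lsm14b-KO. There were 720 with no filter on low values, 862 with a mean of at least 5 FPKM and 4383 with the quality weights. The share called higher was 63.2% in TPM, 43.9% with median-ratio scaling, 42.4% after quantile normalization and 45.2% after the correction for length and GC content. Leaving out 1 library gave 321 (without Lsm14b-KO replicate 3) to 2952 genes (without Lsm14b-KO replicate 1). The numbers without WT replicates 1, 2 and 3 were 408, 426 and 537, and without Lsm14b-KO replicate 2 there were 915. The cause of these shifts was not tested.

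A replicate block, which pairs libraries by their replicate number, left 1244 genes past the threshold and the same 3 members called, with adjusted p-values of 0.0427 (Obox1), 0.0221 (Obox2) and 0.0351 (Obox5) in limma. Same-numbered libraries deviated from their group means with correlations of 0.19, -0.128 and 0.018. With 3 libraries per group, these values cannot decide whether the numbers pair the libraries. Together with the correction for length and GC content the block left 2 members called. Without read counts, the counting error of the low members Obox3 and Obox6 cannot be given.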
